A study of Mus musculus with 2 samples.

Results

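The aquaporin genes Aqp1, Aqp3, Aqp4 and Aqp5 were followed through the cell classes of 2 droplet single-cell RNA libraries of sorted mouse lung cells. They were the rows with these symbols in the gene table of both libraries, 4 of 28692 genes, and 4 of the 11 genes in that table named Aqp with a number. Both mice were wild-type C57BL/6, and the labels give neither their age nor a further allele. The tumor-bearing mouse was injected under the skin of the back with 1000000 luciferase-labeled LLC cells, a mouse Lewis lung carcinoma line, and its lungs were taken at day 14. The control mouse was non-treated, with no mock injection named. CD45- SftpC+ epithelial cells were sorted from the digested lungs, so that every class other than alveolar type 2 (AT2) was present only as far as it passed that gate. Each group was 1 library of 1 mouse, so no difference between them has a replicate check, and no p-value is given. All intervals are exact 95% intervals and cover counting error only.

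Aquaporins are membrane channels that let water cross cell membranes along an osmotic gradient, and Aqp3 also passes glycerol. In the lung, Aqp5 is known as a channel of the apical membrane of alveolar type 1 (AT1) cells, the thin cells of gas exchange. Aqp1 is known in the endothelium of capillaries, and Aqp3 and Aqp4 in the basolateral membranes of airway epithelium. AT2 cells secrete surfactant and are marked by Sftpc. Club cells secrete Scgb1a1, ciliated cells move mucus, and basal cells are the Krt5-positive stem cells of the conducting airway.

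The pore of an aquaporin is lined by a pair of loops that each carry the amino acids asparagine, proline and alanine, the NPA box. The coding sequence of each of the 4 genes held 2 such boxes. The stretches of 27 bases around them are shown for 3 of the genes because they encode the pore. Capitals mark the bases of the box, and all are 5′ to 3′ on the coding strand, in coding exons of GENCODE vM21 transcripts on build mm10.
Aqp1 box 1, exon 1, chr6:55336707-55336733, plus strand: gctcacctcAACCCTGCGgtcacactg
Aqp1 box 2, exon 3, chr6:55345828-55345854, plus strand: tgcggtatcAACCCTGCCcggtcattt
Aqp3 box 1, exon 3, chr4:41094810-41094836, minus strand: gcccacttgAACCCCGCTgtgaccttc
Aqp3 box 2, exon 5, chr4:41093832-41093858, minus strand: tatgccgtcAACCCTGCCcgtgacttt
Aqp5 box 1, exon 2, chr15:99591467-99591493, plus strand: ggccacatcAATCCGGCCattactctg
Aqp5 box 2, exon 4, chr15:99593261-99593287, plus strand: tgttccatgAACCCAGCCcgatctttc
Between any 2 of the 3 genes, 16 to 18 of the 27 bases were the same at either box. Aqp1 spans chr6:55336432-55348555 on the plus strand, Aqp3 spans chr4:41092722-41098183 on the minus strand, Aqp5 spans chr15:99590782-99594829 on the plus strand. Aqp5 sits between 2 relatives, Aqp2 at 6.23 kb and Aqp6 at 6.57 kb, and Aqp3 is 44.6 kb from Aqp7.

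The libraries held 84448360 (tumor-bearing) and 91498124 (control) unique molecular identifiers (UMIs, counted RNA molecules). AT2 cells were all barcodes with at least 2000 UMIs of which at least 15% were Sftpc, 6729 barcodes of the tumor-bearing mouse and 10008 of the control. The other classes were clusters of called cells named from marker lists that held no aquaporin, with no aquaporin used in the clustering. They held 142 and 321 AT1-like, 254 and 71 club-like, 184 and 283 ciliated-like, 21 and 40 basal-like, and 206 and 59 endothelial-like cells. Barcodes of these classes with 15% or more Sftpc were left out. A marker step then left out cells with at least as many UMIs of a rival list as of their own. The rival lists were AT1, ciliated, basal, endothelial and neuroendocrine, not AT2 or club. The marker step was added after aquaporin values had been seen. The aquaporin levels of basal-like and endothelial-like cells are also given without it. In the AT1-like, ciliated-like and endothelial-like cells every listed marker reached 20 CPM (counts scaled to 1000000 UMIs of the class), and in basal-like cells 9 of 10 did in each library. Basal-like cells held no UMI of Krt14 in the tumor-bearing library. Their basal list summed to 8177 and 7541 CPM, below the AT2 list at 25954 and 36290 CPM and the club list at 34855 and 30000 CPM. In endothelial-like cells the endothelial list summed to 15850 and 15900 CPM and the AT2 list to 41640 and 44336 CPM. Median UMIs per cell ranged from 2675 (endothelial-like, control) to 23526 (club-like, tumor-bearing), where Scgb1a1 took 59.7% of the UMIs. Free RNA was read from empty droplets of 1 to 100 UMIs, 554687 and 485851 barcodes. Of the cells in the 6 classes, 112 barcodes occurred in both libraries (1.49% and 1.04% of the cells).

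Each aquaporin was highest in 1 class, and that class was the same in both libraries. The order of the classes by Aqp5 was also the same in both, from AT1-like through basal-like, AT2, club-like and endothelial-like to ciliated-like cells, and no neighbours in it had overlapping intervals. This order holds for totals of all UMIs and with the marker step. On a scale without marker genes club-like cells lay above AT2 cells, and without the marker step endothelial-like cells did. Aqp5 was highest in AT1-like cells, Aqp1 in endothelial-like cells, and both Aqp3 and Aqp4 in basal-like cells. The plot of levels by class shows this order.

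**Figure D1:**
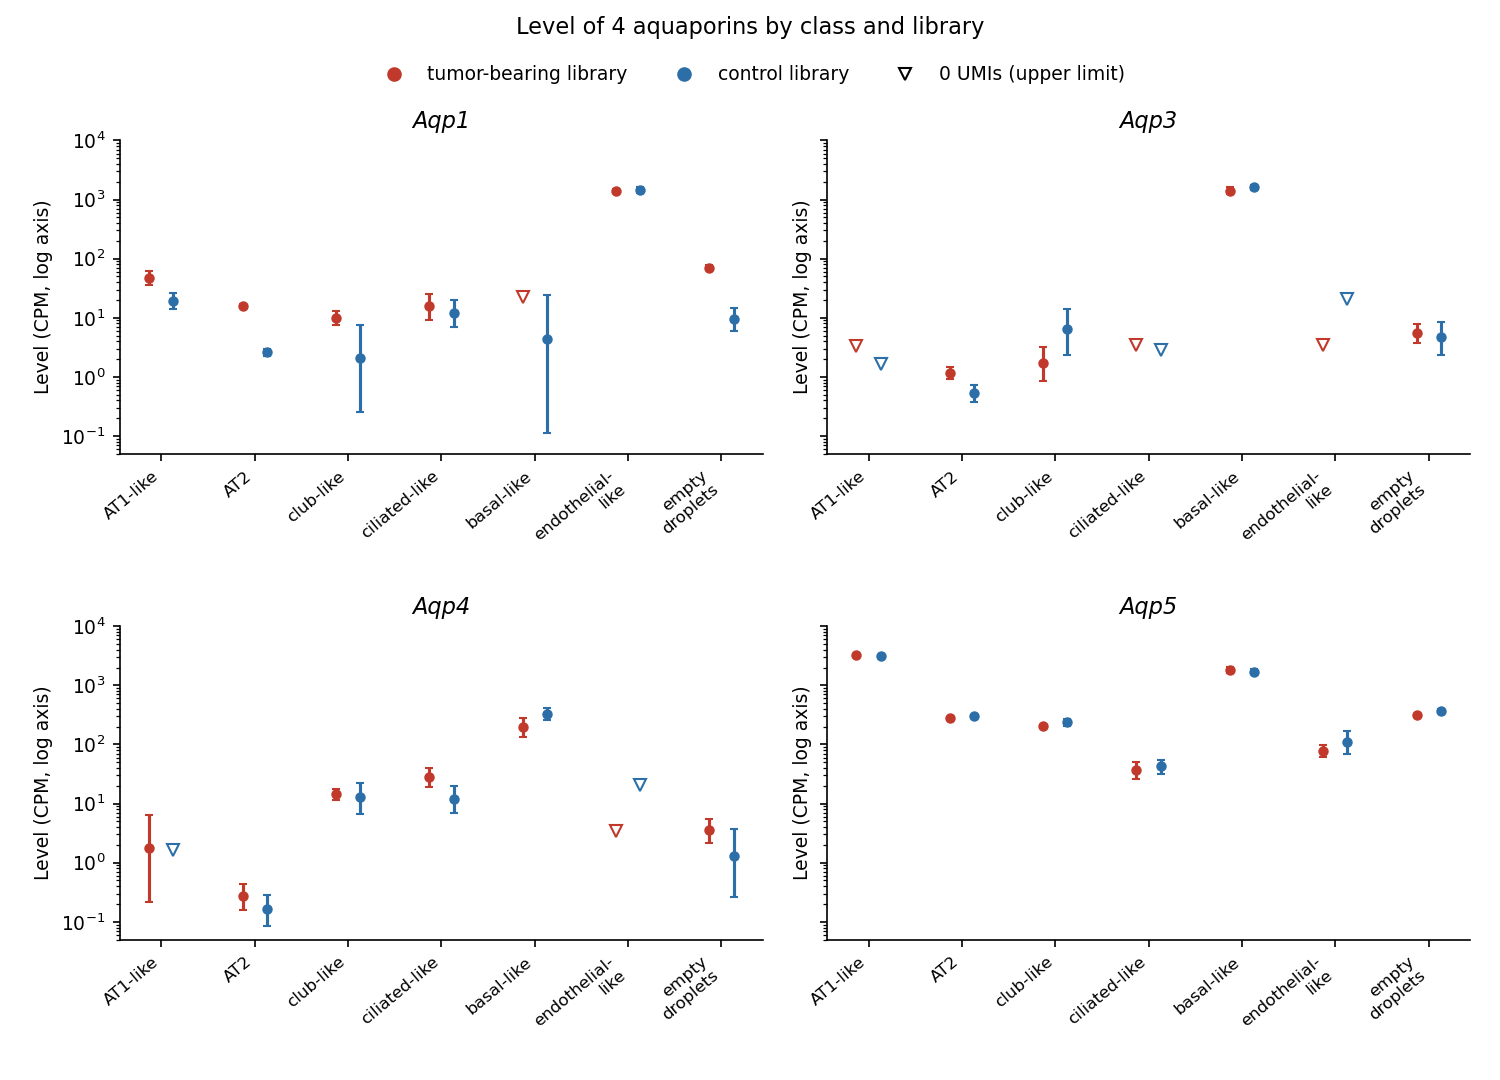
Level of each aquaporin (CPM, log axis) in the 6 classes and the empty droplets of the tumor-bearing (red) and control (blue) library. Points are summed UMIs scaled to CPM with exact 95% Poisson intervals, and open triangles mark the upper limit where a class held 0 UMIs; Aqp5 in AT1-like cells was at 3274 and 3109 CPM and Aqp3 in basal-like cells at 1406 and 1599 CPM.

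Aqp5, the apical water channel of AT1 cells, stood at 3274 CPM (3169 to 3381) in AT1-like cells of the tumor-bearing library and at 3109 CPM (3036 to 3182) in those of the control library. It was detected in 99.3% (96.1% to 99.98%, exact Clopper-Pearson) and 98.8% (96.8% to 99.7%) of these cells, with a median of 24 and 19 UMIs per cell. Within the class the level varied, and the quartiles were 2114 and 4631 CPM in the tumor-bearing library and 1796 and 4403 CPM in the control library. Basal-like cells were the next class, at 1805 CPM (1604 to 2023) and 1691 CPM (1526 to 1869), with Aqp5 in 21 of 21 and 39 of 40 cells. AT1-like cells held 1.81 (1.61 to 2.05) and 1.84 (1.66 to 2.04) times the basal-like level. Without the marker step basal-like cells held Aqp5 at 1264 and 1503 CPM, and AT1-like cells held 2.59 (2.31 to 2.91) and 2.07 (1.87 to 2.30) times as much.

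Aqp5 in the basal-like cells kept by the marker step came with little Ager. That step left out cells with as many AT1 as basal UMIs, and Ager is on the AT1 list. Low AT1 markers in the cells kept are thus in part set by the step. Of the 17 and 8 cells left out, 4 and 2 had most UMIs in the AT1 list. No ratio without the step is given here. Ager, the receptor for advanced glycation end products, is a defining marker of AT1 cells, and in AT1-like cells the ratio of Aqp5 to Ager UMIs was 0.120 and 0.121. In basal-like cells the ratio of Aqp5 to Ager UMIs was 9.80 (6.72 to 14.8) and 4.41 (3.49 to 5.64). In the empty droplets it was 0.177 and 0.169. The AT1 marker list summed to 1252 and 1357 CPM in basal-like cells, against 51310 and 47879 CPM in AT1-like cells, and 6 of its 12 genes reached 20 CPM in each library.

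In AT2 cells Aqp5 stood at 281 CPM (277 to 285) for the tumor-bearing mouse and 302 CPM (298 to 306) for the control. That is lower than in AT1-like cells by 11.7-fold (11.2 to 12.1) and 10.3-fold (10.0 to 10.6). It was also close to the level in the empty droplets, 315 and 365 CPM. The 10 AT2 markers summed to 228181 and 278551 CPM in those droplets, against 319901 and 316477 CPM in AT2 cells. Ciliated-like cells, the lowest class, gave 37.1 CPM (26.5 to 50.5) and 42.5 CPM (32.1 to 55.2). AT2 cells held 7.57 (5.56 to 10.6) and 7.11 (5.47 to 9.42) times that level. The part of free RNA in either level was not tested.

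The share of AT2 cells with at least 1 Aqp5 UMI was 79.5% (78.6% to 80.5%) in the tumor-bearing and 76.6% (75.8% to 77.4%) in the control library, at median depths of 8976 and 6939 UMIs. Ciliated-like cells gave 16.8% (11.7% to 23.1%) and 16.6% (12.5% to 21.5%), at 5392 and 4362 UMIs. With every cell thinned to 2000 UMIs the shares were 37.8% and 41.2% in AT2 and 6.52% and 7.42% in ciliated-like cells. The order of the 2 libraries in AT2 cells thus turned with the thinning, and the order of the 2 classes did not.

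The AT1 markers did not stand at one common share of their AT1-like level in AT2 cells. As a share of the AT1-like level, Aqp5 in AT2 cells was at 8.58% and 9.72%, and of the 12 AT1 markers only the claudin gene Cldn18 was above it, at 17.0% and 16.6%. Ager was at 7.12% and 6.94%, and Emp2 at 7.73% and 7.82%. At the other end, Rtkn2 was at 0.887% and 1.01%, Igfbp2 at 0.661% and 0.880%, and Hopx at 1.70% and 1.71%. The median of the 12 markers was 2.65% and 3.07%. Set against the empty droplets, the AT2 level was 1.19 and 0.97 times as high for Cldn18 and 1.09 and 0.82 times for Ager. It was 0.90 and 0.86 times as high for Emp2, 0.38 and 0.37 times for Hopx and 0.25 and 0.23 times for Rtkn2. The part of free RNA in these levels was not tested. In ciliated-like cells Aqp5 was at 1.13% and 1.37% and Ager at 0.821% and 1.22%, while Hopx was at 19.2% and 16.6%.

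**Figure D2:**
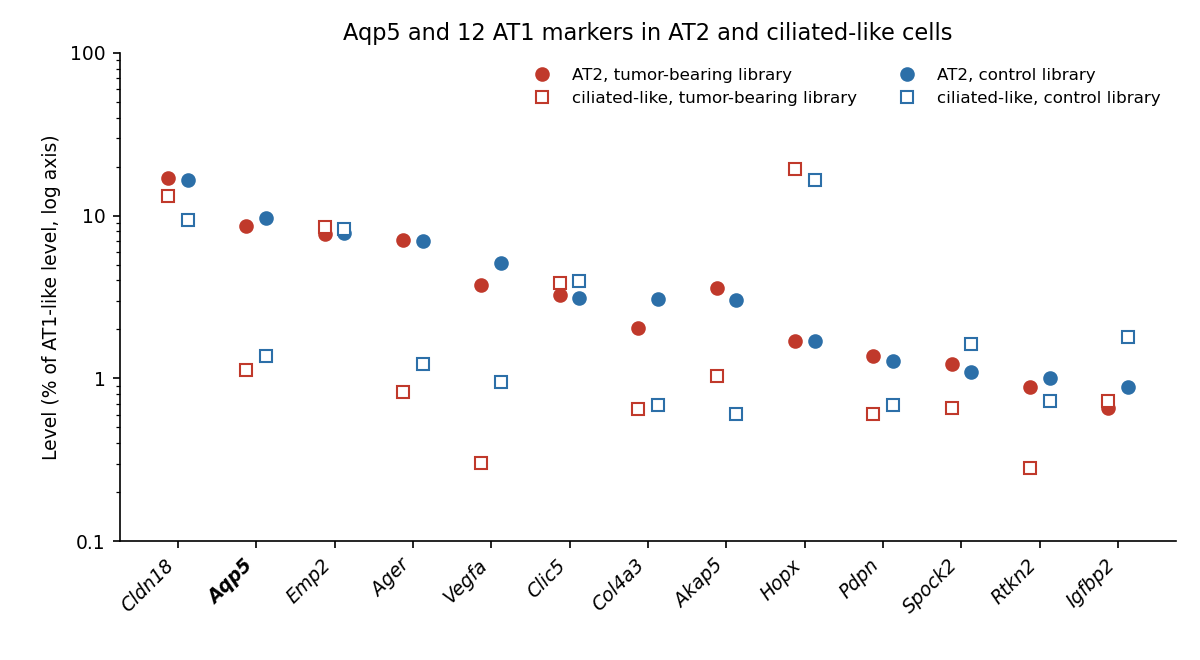
Level of Aqp5 and of the 12 AT1 markers in AT2 cells (filled circles) and ciliated-like cells (open squares), as a percentage of the AT1-like level of the same library (log axis; genes with 0 UMIs are not drawn). Aqp5 lies at 8.58% and 9.72% in AT2 cells and at 1.13% and 1.37% in ciliated-like cells.

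Nearly every AT2 barcode held some AT1 marker RNA. Only 11 tumor-bearing and 37 control barcodes had 0 UMIs of Ager, Hopx, Rtkn2, Clic5, Pdpn and Akap5 together, with Aqp5 at 118 CPM (32.0 to 301) and 214 CPM (140 to 314). These barcodes were shallow, with a median of 2283 and 2603 UMIs. When Ager was left out of that list, a choice made after the first count was seen, 3127 and 5044 barcodes had 0 UMIs of the other 5 markers. Their Aqp5 level was 259 and 284 CPM, near that of all AT2 barcodes.

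Among the clusters that held most AT2 barcodes, Aqp5 was highest in 1, numbered 3, in both libraries. It stood there at 438 CPM (418 to 459) in 447 tumor-bearing barcodes and at 433 CPM (419 to 448) in 1123 control barcodes. Clusters 0, 1 and 2 lay between 252 and 269 CPM and between 267 and 276 CPM. Cluster 3 was led by Gsta1, Areg, Clu and Slpi and by the MHC class II genes H2-Eb1 and H2-Aa. Taken against clusters 0 to 2 pooled, its Aqp5 level was 1.69 (1.60 to 1.77) and 1.59 (1.53 to 1.65) times as high. The 12 AT1 markers summed higher there too, to 4361 CPM against 2787 to 2907 CPM in the tumor-bearing library and to 4132 against 2574 to 2715 CPM in the control library. Ager was at 2625 and 2378 CPM and Hopx at 175 and 230 CPM. Against cluster 0 alone, Rtkn2, Spock2 and Vegfa were not higher in both libraries. In the tumor-bearing library Rtkn2 was at 3.92 CPM (2.24 to 6.36, 16 UMIs) against 5.81 CPM (4.85 to 6.91). Clusters 1 and 2 held it at 3.93 and 4.01 CPM. Spock2 was at 1.96 CPM (0.846 to 3.86, 8 UMIs) against 3.40 CPM (2.68 to 4.27). In the control library Rtkn2 was at 12.1 against 6.22 CPM and Spock2 at 6.76 against 3.63 CPM. Vegfa was at 42.4 against 41.9 CPM (tumor-bearing) and 45.2 against 47.8 CPM (control). Where cluster 3 was the lower, the intervals overlapped. The rest of the list was higher than in cluster 0 in both libraries. The part of the AT1 markers in the Aqp5 level was not tested. The clusters were made from the same cells, so these values are a description. With 2 other clusterings, over clusters of at least 200 AT2 barcodes, the highest reached 397 and 396 CPM (resolution 1.0) and 381 and 351 CPM (another Leiden implementation), against at most 263 and 290 CPM, and 258 and 273 CPM, in the next.

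**Figure D3:**
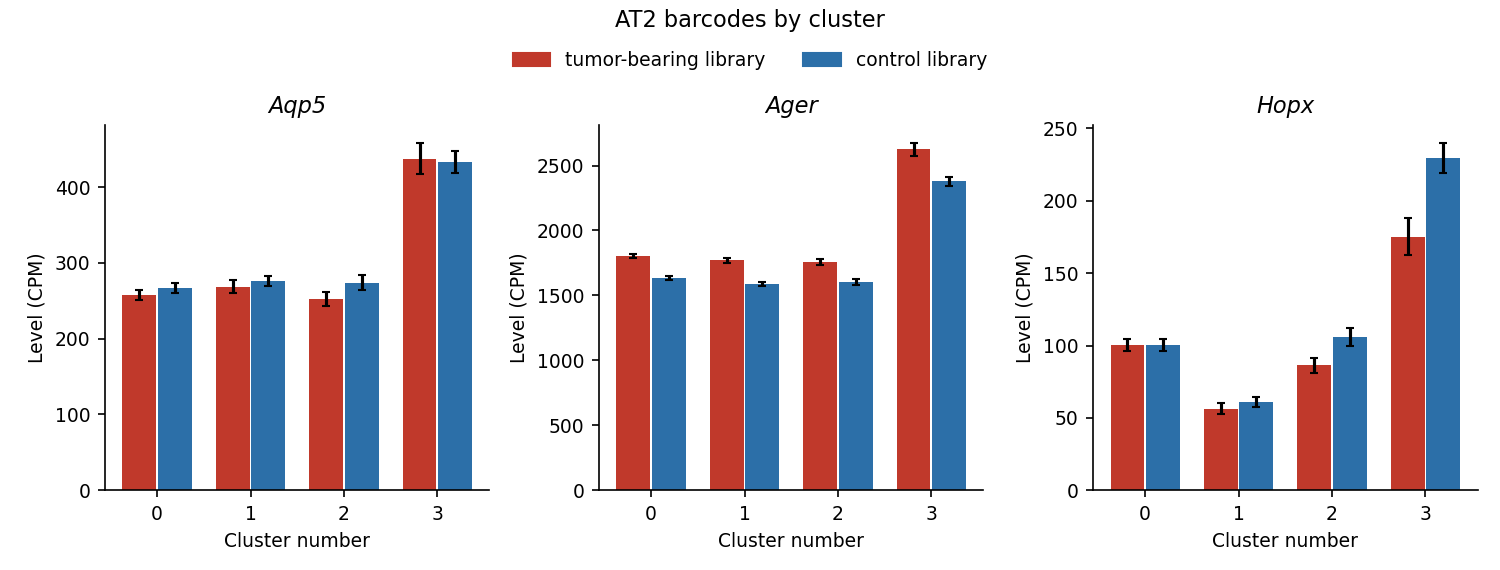
Level (CPM) of Aqp5, Ager and Hopx in AT2 barcodes of the 4 main clusters, tumor-bearing (red) and control (blue) library, with exact 95% Poisson intervals. Bars start at 0; cluster 3 has the highest level of all 3 genes in both libraries, with Aqp5 at 438 and 433 CPM.

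In club-like cells Aqp5 stood at 203 CPM (192 to 215) and 239 CPM (209 to 272). The ratio of Aqp5 to Ager UMIs was 0.408 (0.381 to 0.437) and 0.266 (0.229 to 0.308) there, above that of the empty droplets. Whether club-like or AT2 cells were higher depended on the scale. By all UMIs, AT2 cells held 1.38 and 1.26 times the club-like level. With the marker genes of all classes, Scgb1a1 and Sftpc among them, taken out of the totals, they held 0.715 and 0.731 times that level. Endothelial-like cells held 78.4 CPM (62.4 to 97.1) and 111 CPM (67.9 to 172), at an Aqp5 to Ager ratio of 0.117 and 0.123, near that of AT1-like cells. Before cells with more AT1 than endothelial markers were left out, that level was 463 and 636 CPM, so it rests on that step. The AT1 markers still summed to 4101 and 4019 CPM in the endothelial-like cells kept.

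Aqp1, the water channel of capillary endothelium, stood at 1420 CPM (1349 to 1494) in endothelial-like cells of the tumor-bearing and 1434 CPM (1265 to 1620) in those of the control library. It was detected in 96.1% (92.5% to 98.3%) and 93.2% (83.5% to 98.1%) of these cells. The tumor-bearing over control ratio was 0.990 (0.867 to 1.13), so counting error alone allows a level from 0.867 to 1.13 times that of the control. With the cells rich in AT1 markers kept, the levels were 1159 and 1030 CPM. The next class, AT1-like cells, was lower by 29.6-fold (22.6 to 39.6) in the tumor-bearing and 73.4-fold (53.2 to 104) in the control library.

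Outside the endothelial-like cells Aqp1 was low. In AT1-like cells, AT2 cells and empty droplets it was higher in the tumor-bearing library, with Poisson intervals that did not overlap. It stood at 48.0 CPM (36.0 to 62.6) and 19.5 CPM (14.2 to 26.2) in AT1-like cells, a ratio of 2.46 (1.62 to 3.75). In AT2 cells it stood at 15.8 CPM (14.8 to 16.8) and 2.62 CPM (2.26 to 3.02), a ratio of 6.02 (5.15 to 7.07). Of the 993 and 190 Aqp1 UMIs of AT2 cells, 428 and 53 lay in the 171 and 35 AT2 barcodes that fell in the endothelial cluster, at 226 and 212 CPM. Without those barcodes, a choice made after the values were seen, the AT2 level was 9.26 CPM (8.51 to 10.1) and 1.90 CPM (1.59 to 2.24), a ratio of 4.88 (4.04 to 5.93). In the empty droplets it stood at 70.5 CPM (63.6 to 78.0) and 9.48 CPM (5.94 to 14.3), a ratio of 7.44 (4.84 to 12.02). All 3 pairs lay apart beyond counting error, and neither AT1-like nor AT2 cells reached the 50 CPM that the size rule asks. In AT1-like cells this turns on the processing. The levels were 127 and 29.1 CPM with 1 minimum of 2000 UMIs, 127 and 32.0 CPM with each library clustered alone, and 62.5 and 18.2 CPM with Sftpc below 5% of UMIs.

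The endothelial markers moved with these values. Their 12 genes summed to 219 and 51.7 CPM in AT2, 498 and 231 CPM in AT1-like, and 795 and 146 CPM in the empty droplets, with none of the 12 at 0 in AT2 or AT1-like cells. The ratio of Aqp1 to Cldn5 UMIs, Cldn5 being the claudin of endothelial junctions, was 0.318 (0.300 to 0.337) and 0.382 (0.329 to 0.441) in endothelial-like cells. In AT1-like cells the ratio was 0.470 (0.333 to 0.654) and 0.407 (0.280 to 0.584), in AT2 cells 0.401 (0.372 to 0.432) and 0.557 (0.464 to 0.667), and in the empty droplets 0.439 (0.388 to 0.495) and 0.537 (0.304 to 0.922). The ratio thus lay between 0.318 and 0.557 in all 4, and in AT2 cells it was above that of endothelial-like cells beyond counting error in both libraries. In AT2 barcodes outside the endothelial cluster it was 0.510 and 0.581, with the endothelial markers at 123 and 42.7 CPM. The share of endothelial RNA in the Aqp1 difference was not tested. Ciliated-like cells held 17 and 16 UMIs of Aqp1 (15.8 and 12.1 CPM), and basal-like cells 0 and 1. Club-like cells held 57 and 2 UMIs (9.95 and 2.12 CPM), a ratio of 4.69 (1.24 to 39.6). That interval excludes 1, but the Poisson intervals of the club-like levels overlapped. For the tumor-bearing basal-like cells, 0 UMIs allows a level of up to 18.4 CPM by a floor of 3 counts.

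Aqp3, the channel for water and glycerol of basal cells, stood at 1406 CPM (1230 to 1600) in basal-like cells of the tumor-bearing and 1599 CPM (1439 to 1772) in those of the control library. All 21 tumor-bearing and 39 of 40 control cells held it, with a median of 10 and 8 UMIs in the cells that did. The quartiles over cells were 1053 and 1920 CPM in the tumor-bearing library and 1090 and 1917 CPM in the control library, while the 5th and 95th percentiles lay farther apart in the control library, at 508 and 3123 CPM against 761 and 2339 CPM. No other class came near. Club-like cells held 1.75 CPM (10 UMIs) and 6.37 CPM (6 UMIs), AT2 cells 1.16 and 0.538 CPM, and the empty droplets 5.60 and 4.74 CPM.

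AT1-like, ciliated-like and endothelial-like cells held 0 UMIs of Aqp3 in both libraries. By the floor of 3 counts this allows up to 2.67 and 1.33 CPM in AT1-like, 2.78 and 2.28 CPM in ciliated-like, and 2.83 and 16.7 CPM in endothelial-like cells. Without the marker step the control endothelial-like cells held 5 UMIs of Aqp3 (15.4 CPM) and 1 of Aqp4 (3.07 CPM). The ratio of tumor-bearing to control Aqp3 in basal-like cells was 0.879 (0.742 to 1.04), an interval that holds 1. With the cells kept that had more neuroendocrine or AT1 than basal markers (17 and 8 cells), the levels were 925 and 1419 CPM. The cells left out held Aqp3 at 34.1 and 256 CPM, and 13 and 6 of them had most UMIs in the neuroendocrine list.

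Aqp4, a water channel of basolateral membranes best known from the brain, was also highest in basal-like cells, at 196 CPM (134 to 277) in the tumor-bearing and 326 CPM (256 to 409) in the control library. These rest on 32 and 74 UMIs, in 14 of 21 and 33 of 40 cells. The ratio was 0.603 (0.385 to 0.924). The 2 Poisson intervals overlapped, and the size rule was not met. Without the marker step the levels were 148 and 294 CPM. Ciliated-like cells held 27.8 CPM (18.8 to 39.7) and 12.1 CPM (6.94 to 19.7), from 30 UMIs in 23 of 184 cells and 16 UMIs in 15 of 283 cells. The ratio there was 2.29 (1.21 to 4.50), neither library reached 50 CPM, and no change is read from so few UMIs. With each cell thinned to 2000 UMIs, 1 draw gave 10.9 and 10.6 CPM, and the mean over all draws was 23.2 and 10.1 CPM. Most of these cells held a single UMI, 18 of 23 and 14 of 15.

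The part of basal RNA in the Aqp4 of ciliated-like cells was not tested. Krt5, Krt14, Krt17, Trp63, Dlk2 and Col17a1 were at 0 UMIs in the ciliated-like cells of both libraries. Krt5 was at 1099 and 762 CPM in basal-like cells, and the empty droplets held 17 and 4 UMIs of it. In ciliated-like cells, 0 UMIs allows up to 2.78 and 2.28 CPM by the floor of 3 counts. The 10 genes of the basal list summed to 749 and 537 CPM in ciliated-like cells, 2 of them at 20 CPM or more. Krt15 was at 1.86 and 1.52 CPM there, so other genes of the list made up nearly all of the sum. Club-like cells held Aqp4 at 14.3 CPM (11.4 to 17.8) and 12.7 CPM (6.58 to 22.3). The control value turned on the clustering, at 74.9 CPM against 19.98 CPM (tumor-bearing) with 1 minimum of 2000 UMIs, and at 74.9 against 14.2 CPM with each library clustered alone. In both of these settings no cluster with control cells was named basal, and Krt15 was among the leading genes of the club cluster. The part of basal cells in these control values was not tested. In the empty droplets Aqp4 stood at 3.54 and 1.29 CPM. AT2 cells held 0.270 CPM (0.157 to 0.433) and 0.166 CPM (0.0855 to 0.289), and AT1-like cells 2 and 0 UMIs. Endothelial-like cells held 0 UMIs in both, which allows up to 2.83 and 16.7 CPM.

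Most single basal-like cells kept by the marker step carried 3 of the channels at once. Detection together was not counted in the 17 and 8 cells that this step left out, which held 3 and 9 UMIs of Aqp3 in all. Aqp3 and Aqp5 were found together in 21 of 21 tumor-bearing and 38 of 40 control cells. All of Aqp3, Aqp4 and Aqp5 were found in 14 of 21 and 31 of 40 cells. No basal-like cell of either library lacked both Aqp3 and Aqp5. In ciliated-like cells Aqp4 and Aqp5 were rarely together, in 4 of 184 and 3 of 283 cells, where 19 and 12 held Aqp4 alone.

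Taken as a comparison of the 2 libraries, no aquaporin met the size rule in any class. That rule asks for 50 CPM in a library, a 2-fold difference and Poisson intervals that do not overlap. It was met by 0.56% of the genes measured at 50 CPM in AT2 cells, 1.43% in AT1-like, 1.4% in club-like, 1.93% in ciliated-like, 2.92% in basal-like and 2.7% in endothelial-like cells. The aquaporins at 50 CPM or more were 1 each in AT2, AT1-like and club-like cells, 3 in basal-like, 2 in endothelial-like and none in ciliated-like cells. At those shares, 0 of so few genes says little.

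The Aqp5 ratio was 1.05 (1.01 to 1.10) in AT1-like, 0.930 (0.912 to 0.949) in AT2, 0.851 (0.738 to 0.987) in club-like and 1.07 (0.914 to 1.25) in basal-like cells. The first 3 intervals exclude 1. For AT1-like, AT2 and basal-like cells the direction turned with the processing, and for club-like cells the size did. In AT1-like cells the log2 ratio of 0.07 became -0.32 when barcodes with 15% or more Sftpc were kept. In AT2 cells the log2 ratio of -0.10 became 0.15 when the empty-droplet profile was subtracted at the level of Scgb1a1. In basal-like cells the log2 ratio of 0.09 became -0.25 without the marker step. No direction is therefore read for Aqp5 in these 3 classes. In club-like cells the log2 ratio of -0.23 was below 0 under all 13 alternatives. It reached -1.06 (249 and 520 CPM) with 1 minimum of 2000 UMIs. With each library clustered alone it reached -1.37 (203 and 526 CPM). In both of these settings no cluster with control cells was named basal. The club cluster then held 117 and 272 control cells, against 74 in the main clustering. Krt15 was among its leading genes in both settings, and Krt5 in the latter. The part of basal cells in these values was not tested. The median of all club-like genes at 50 CPM was -0.19, so the value of -0.23 lay near that of the class as a whole. With marker genes taken out of the totals, Aqp5 stood at 596 and 620 CPM.

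**Figure D4:**
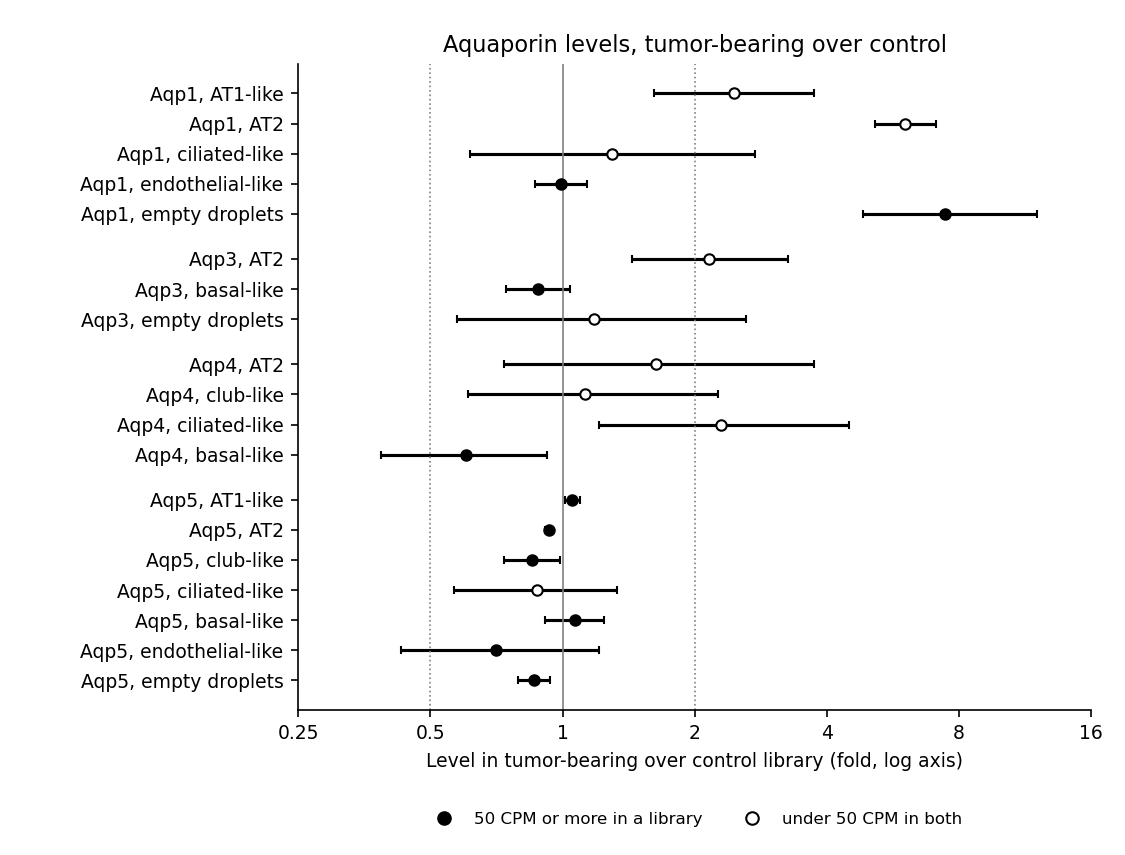
Tumor-bearing over control ratio (fold, log axis) of each aquaporin in each class with at least 10 UMIs in both libraries, with exact 95% intervals for counting error. Filled points reached 50 CPM in a library, open points did not, and dotted lines mark a 2-fold difference; Aqp1 in AT2 (6.02) and in empty droplets (7.44) lies farthest to the right.

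The genes whose levels ran most like each aquaporin over the 12 profiles (6 classes in 2 libraries) were sought among 5418 genes. The correlations are descriptions, since the profiles share libraries and free RNA. Trp63, Krt5, Krt15, Cdh5 and Pdpn, named below, are on the marker lists that named the classes and sorted their cells. Their likeness to a gene high in such a class is thus in part built in. For Aqp1 they were BC028528, Acvrl1, a receptor kinase of endothelium, Gimap6, Cyyr1 and Cdh5, the cadherin of endothelial junctions, with Pearson r of log2 CPM from 0.98 to 0.99. For Aqp3 they were 4631405K08Rik, Trp63, the master transcription factor of basal cells, Krt5, Bcl11a and Krt15 (r 0.98 to 1.00). For Aqp4 they were Sult1d1, a sulfotransferase, Fxyd3, a regulator of the sodium pump, Synpr, Oit1 and Sfrp1 (r 0.95 to 0.99). For Aqp5 they were Celf2, Wwp1, Pdpn, the AT1 membrane protein podoplanin, and Ctsb (r 0.91 to 0.95).

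Pdpn, itself an AT1 marker, stood at 1067 and 995 CPM in AT1-like cells and at 338 and 220 CPM in basal-like cells but at 14.6 and 12.7 CPM in AT2 cells. Among the aquaporins themselves, Aqp3 and Aqp4 ran most alike (r = 0.82), Aqp3 and Aqp5 less so (0.47), and Aqp1 ran against the other 3 (-0.61 to -0.34). Sult1d1, the gene most like Aqp4, stood at 129 and 55.4 CPM in ciliated-like cells and at 798 and 815 CPM in basal-like cells, and these profiles were among those that chose it.

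The other 8 aquaporins were Mip, Aqp2, Aqp6, Aqp7, Aqp8, Aqp9, Aqp11 and Aqp12. None reached 20 CPM in any class of either library, with 1 exception. Aqp11, an intracellular family member, stood at 38.9 CPM in control endothelial-like cells, from 7 UMIs, against 8.50 CPM in the tumor-bearing library. In AT2 cells Aqp2, the neighbor of Aqp5, gave 114 and 109 UMIs, in 1.60% of the cells of the tumor-bearing library. Whether these reads came from Aqp2 or from the neighboring gene was not tested.

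Water follows salt, and of 28 genes of epithelial ion and fluid transport 26 were in the gene table. In AT1-like cells 13 of them reached 20 CPM. Of the 10 that reached 50 CPM, 1 met the size rule, beside 1.43% of all genes at 50 CPM. A count of 1 among so few genes says little. The gene was Sgk1, the kinase that raises epithelial sodium channel activity, at 530 and 246 CPM, a ratio of 2.15 (1.92 to 2.42). The 3 subunits of that channel, singled out after their values were seen, did not meet the rule. Scnn1a stood at 586 and 533 CPM, Scnn1b at 250 and 236 CPM, and Scnn1g at 383 and 325 CPM. The median log2 ratio of the list was 0.14, against -0.04 for all genes at 20 CPM in AT1-like cells.

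In ciliated-like cells 10 genes of the list reached 20 CPM and 6 reached 50 CPM. Of these 6, Fxyd3 alone met the size rule, beside 1.93% of all genes at 50 CPM. Fxyd3 stood at 69.6 and 31.9 CPM, a ratio of 2.18 (1.48 to 3.27). In the other 4 classes no gene of the list met the rule. In basal-like cells, where 12 reached 20 CPM, Fxyd3 was at 1393 and 1202 CPM, the sodium pump subunit Atp1b1 at 595 and 744 CPM, and Sgk1 at 49.1 and 115 CPM. The median log2 ratio of those 12 was 0.23, against 0.08 for all genes at 20 CPM. In AT2 cells, where 11 did, Atp1b1 was at 745 and 718 CPM, the cotransporter Slc12a2 at 114 and 121 CPM and Scnn1a at 71.8 and 105 CPM. In club-like cells, where 9 did, Atp1b1 was at 468 and 522 CPM, and in ciliated-like cells it was at 326 and 287 CPM. In endothelial-like cells, where 9 reached 20 CPM, Sgk1 was at 180 and 222 CPM.

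A short list of caveolar and membrane-anchoring genes of alveolar wall cells had 6 of its 8 genes in the table. In AT1-like cells 5 reached 50 CPM and none met the size rule, with the caveolin Cav1 at 1150 and 969 CPM. In endothelial-like cells Cav1 was at 814 and 751 CPM, again with none past the rule. In basal-like cells 5 genes of the list reached 50 CPM. Of these, Msn, which ties membrane proteins to actin, met the rule, beside 2.92% of all genes at 50 CPM. Msn stood at 166 and 61.7 CPM, a ratio of 2.69 (1.36 to 5.55).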

How the data were processed

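The deposited matrices hold counts of UMIs for each gene in each barcode, without normalisation, for 1 tumor-bearing and 1 control library. Reads were processed with Cell Ranger 2.1.0 per the labels' series design, on build mm10 per the submitters' processing notes, which also name Seurat and R 3.5.3 without a role. Cell annotations by the submitters were not used here, so classes were rebuilt and may differ from theirs.

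Cells were called as barcodes above the 99th percentile of the 3000 largest divided by 10 (minimum 3344 and 2057 UMIs, 7559 and 10969 barcodes). Cells with under 500 genes or over 20% mitochondrial UMIs were removed. Scrublet in scanpy 1.11.5 marked 0 and 1 doublets, so the top scores were removed at 0.8% per 1000 cells (457 and 959). The AT2 rule uses all barcodes, doublets included. Clusters came from 2000 variable genes, 30 components, 15 neighbours and Leiden (leidenalg 0.10.2, resolution 0.5), and were named by their marker lists. A first clustering with the Leiden of igraph was replaced after its clusters were seen, before any aquaporin value was computed. Neuroendocrine genes were among the leading genes of the basal cluster in both clusterings, which had 41 and 51 cells in each. The step that leaves out cells by the markers of a rival list, never AT2 or club, was chosen after aquaporin values were seen.

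CPM are summed UMIs of a class scaled to 1000000 with exact Poisson intervals, shares have exact Clopper-Pearson intervals, and ratios have exact conditional binomial intervals. The log2 ratio uses a pseudocount of 1 CPM. Counts here are 3′ tags, so levels are compared within a gene, not between genes. Counting across overlapping genes was not examined. The genes and lists were chosen with earlier results of these data known. Named genes are the 4 members, for each the 5 genes with the highest Pearson r, and from each list those of at least 20 CPM that met the size rule, otherwise up to 4 of the highest level. Some genes that this rule names are not reported here. A GENCODE name was found for 28339 identifiers (98.8%). The intervals and the size rule were run on simulated Poisson counts, the model that the intervals assume. That run held no spread between cells or mice and no free RNA, so it cannot speak to them. Alternatives are given in the closing section. Protein sequences were not used here.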

Additional observations from a re-analysis of the deposited data

Results flagged for a closer look

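Among ratios with at least 10 UMIs in each library, 3 pairs of classes had tumor-bearing over control ratios on opposite sides of 1 with counting intervals that exclude 1. The differences between classes were not tested, since each class of each group is 1 library. For Aqp4 the log2 ratio was 1.13 in ciliated-like and -0.73 in basal-like cells, a difference of 1.86. It rests on 30 and 16 UMIs in the former and on 32 and 74 UMIs in the latter. For Aqp5 the log2 ratio was 0.07 in AT1-like cells, against -0.10 in AT2 cells, a difference of 0.18, and against -0.23 in club-like cells, a difference of 0.31. Below that minimum, Aqp3 had a ratio of 2.16 (1.44 to 3.27) in AT2 cells and of 0.274 (0.0903 to 0.918) in club-like cells, the latter from 10 and 6 UMIs.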

How the results depend on the processing

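Of 65 values of 5 log2 ratios under alternatives, 55 lay inside the counting interval of the reported value. Aqp1 in endothelial-like cells stayed inside under all 13 (-0.17 to 0.17). Of 6 further ratios, Aqp4 in basal-like cells stayed inside under all 12, while Aqp1 in AT2 cells left it under 11 of 12 (1.03 to 5.90), Aqp1 in AT1-like cells under 3 of 14 (0.67 to 2.09), Aqp5 in basal-like cells under 2 of 12 (-0.25 to 0.35), Aqp4 in club-like cells under 2 of 13 (-2.32 to 0.67) and Aqp5 in club-like cells under 2 of 13 (-1.37 to -0.06). Aqp3 in basal-like cells was -0.62 with cells richer in another class's markers kept. Aqp4 in ciliated-like cells was 0.033 in 1 draw of 2000 UMIs per cell and 1.13 over all draws. Aqp5 in AT1-like cells was 0.14 in that draw, -0.043 with 1 minimum of 2000 UMIs, -0.019 with each library clustered alone and -0.32 with Sftpc-rich barcodes kept. Aqp5 in AT2 cells was 0.15 with the empty profile subtracted, -0.14 at 10% Sftpc, -0.86 and -0.13 with 0 UMIs of 6 or of 5 AT1 markers. The causes were not tested. Keeping marker-rich cells, the Leiden of igraph, the mean over all draws, the list of 5 markers and leaving out AT2 barcodes of the endothelial cluster were chosen after seeing the data. In empty droplets of 1 to 50 UMIs, Aqp1 was 45.5 CPM (tumor-bearing) and Aqp5 269 and 340 CPM. At a minimum of 20 or 100 CPM in place of 50, the genes past the size rule went from 10 to 32 or 5 in AT2, from 43 to 118 or 21 in AT1-like, from 15 to 88 or 5 in club-like, from 63 to 116 or 37 in ciliated-like and, at 100 CPM, from 100 to 57 in endothelial-like cells. With 1 minimum of 2000 UMIs, no cluster was named basal or endothelial, and with each library alone none was named basal in the control library, so those alternatives gave no value. The comparison rests on 1 mouse per group, and basal-like values on 21 and 40 cells. No paired analysis was possible because each group has 1 library.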

Other observations

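The droplets left out of the endothelial-like class for their AT1 markers, 50 tumor-bearing and 26 control droplets, carried the channels of both cell types. Aqp1 stood there at 455 and 529 CPM and Aqp5 at 1501 and 1285 CPM, and 47 and 23 of them had most UMIs in the AT1 list. Whether they were cells or pairs of cells was not tested. In the droplets left out of the basal-like class, 17 and 8, Aqp5 stood at 262 and 285 CPM and Aqp4 at 56.9 and 85.4 CPM.

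AT2 barcodes that fell in the endothelial cluster, 171 in the tumor-bearing library, held Aqp5 at 214 CPM (194 to 236), below the other AT2 clusters of that library, and Aqp1 at 226 CPM (205 to 249), above them.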
